A study of Rattus norvegicus with 20 samples.

Results

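Sham rats in this study were operated on without the surgery that produces reflux esophagitis, and their whole blood gives the level of each transcript in the operated animal without the disease. The sham group was taken as the 4 arrays whose titles name whole blood of a sham animal, out of 20 arrays in all. Every group was of Wistar rats, with 4 animals each and 1 array per animal: sham operated, untreated esophagitis, esophagitis with STW5 at 0.5 ml/kg, esophagitis with STW5 at 2 ml/kg, and esophagitis with omeprazole at 30 mg/kg. STW5 is a liquid herbal preparation and omeprazole an inhibitor of the gastric proton pump, and either was given for 7 days ahead of the operation and a further 10 days after it. Blood was drawn straight into tubes that preserve RNA, so all cells of the blood contributed, and cell counts were not analysed here. The labels give neither the age of the rats nor what the sham operation comprised.

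Whole blood RNA is a mixture. Mature red cells of mammals have no nucleus, but the youngest of them, the reticulocytes, still carry messenger RNA for hemoglobin and for heme synthesis, and platelets carry RNA made by megakaryocytes. Neutrophils, monocytes, T cells, B cells and natural killer (NK) cells add their own transcripts, and genes of solid organs are known to be low in blood. In such a mixture fewer cells of a type and less RNA per cell cannot be told apart.

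The arrays were 1-colour Agilent arrays with probes of 60 bases. The level of a gene is log2 of the ratio of its processed spot signal to the 75th percentile signal of the same array, so that 0 is the signal of the 75th percentile spot, and values are given in the order of sham rats 1, 2, 3 and 4. A gene was taken as present on an array where the scanner software marked it as well above background. The rank of a gene is a rank of probe signal, since probes differ in how strongly they bind, and levels of different genes are not amounts that can be compared. The 75th percentile signal was 116, 173, 103 and 97.8 on the sham arrays and ran from 71.3 to 308 over the series. Between 45.6% and 50.3% of probes were well above background on the sham arrays, against 43.1% to 57.4% in the series, and the sham arrays correlated with each other over genes at 0.980 to 0.987. Sham rat 2 had the brightest array of the group.

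The probes behind the main observations are shown with their positions on the rat rn4 assembly, as the array files give them. Hbb-b1 and Hbe2 are beta-type globin genes, and the capitals mark the 14 bases in a row that their probes share, the longest run shared by any pair of the globin probes. Hba-a3, an alpha-globin gene, and Alas2, the enzyme of the first step of heme synthesis in red cell precursors, are shown as abundant red cell transcripts with no run in capitals. They lie at chr1:161597660-161597719 (Hbb-b1), chr1:161648636-161648695 (Hbe2) and chr10:15559461-15559520 (Hba-a3), all on the minus strand, and at chrX:39810353-39810412 on the plus strand (Alas2).
Hbb-b1: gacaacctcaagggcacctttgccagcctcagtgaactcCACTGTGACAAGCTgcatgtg
Hbe2: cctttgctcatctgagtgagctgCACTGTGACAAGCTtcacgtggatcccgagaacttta
Hba-a3: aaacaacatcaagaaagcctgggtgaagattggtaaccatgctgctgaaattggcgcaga
Alas2: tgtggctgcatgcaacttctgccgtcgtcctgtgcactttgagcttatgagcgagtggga

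A further set shows genes that differed widely between the sham rats: Ctrb1, Gzma, Tdrd12 and Try10 have the highest SDs among named genes present on all 4 arrays, and Cpb1, Cela2a and Cela3b were above background on 1 sham array alone. Ctrb1 (chymotrypsinogen), Try10 (a trypsinogen), Cpb1 (a carboxypeptidase), Cela2a and Cela3b (elastases) are digestive enzymes of pancreatic acinar cells, Gzma is a granzyme of killer lymphocytes, and Tdrd12 is a Tudor-domain protein of the germline. The capitals mark the 9 bases that the elastase probes share. The probes lie at chr19:41611386-41611445 (Ctrb1), chr4:69053166-69053225 (Try10), chr2:105413345-105413404 (Cpb1), chr5:160729648-160729707 (Cela2a), chr5:156181926-156182944 (Cela3b), chr2:44490165-44490224 (Gzma) and chr1:88010319-88010378 (Tdrd12), all on the minus strand, and that of Cela3b spans a longer stretch of genome than its own length.
Ctrb1: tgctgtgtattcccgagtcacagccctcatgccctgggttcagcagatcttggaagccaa
Try10: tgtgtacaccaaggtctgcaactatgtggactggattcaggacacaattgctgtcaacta
Cpb1: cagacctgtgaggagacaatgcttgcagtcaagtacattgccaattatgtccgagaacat
Cela2a: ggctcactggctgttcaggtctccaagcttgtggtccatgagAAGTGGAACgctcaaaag
Cela3b: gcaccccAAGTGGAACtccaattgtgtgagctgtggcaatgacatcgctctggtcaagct
Gzma: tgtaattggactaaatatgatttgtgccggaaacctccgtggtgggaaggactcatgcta
Tdrd12: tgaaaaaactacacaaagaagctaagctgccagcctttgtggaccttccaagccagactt

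Red cell transcripts headed the ranking of sham blood. Of the 30 named genes with the highest mean level, 9 belonged to the erythroid list and 3 were cytosolic ribosomal proteins. Car2, also among the 30, was not counted as erythroid, because the list held it under another symbol, Ca2. Hbb-b1 was first, at 11.91, 11.26, 12.04 and 12.001. Alas2 followed at 11.57, 10.97, 11.70 and 11.73, and the alpha-globin gene Hba-a1 at 11.31, 10.76, 11.36 and 11.49. All 3 were lowest on sham rat 2, and the other 3 rats lay close together.

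Among the other globin genes the mean level over the 4 rats was 11.06 ± 0.36 (SD, n = 4) for Hbb-bs, 10.93 ± 0.38 for Hbb, 10.91 ± 0.39 for Hba-a3 and 10.85 ± 0.31 for Hbe2, an embryonic-type globin. Globin genes of 1 type are similar in sequence, and whether a probe also binds the transcript of another copy was not tested. The second probes of Hbb-b1, Hba-a1 and Hbb stood at 11.71, 11.07 and 10.56, so each gene had a high signal at 2 sequences. The 5 adult globin genes Hba-a1, Hba-a3, Hbb, Hbb-b1 and Hbb-bs gave 4.75%, 3.70%, 5.11% and 4.62% of the summed signal over all genes.

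Genes of red cell maturation followed the globins. Ahsp, the chaperone that binds free alpha-globin, stood at 10.03 ± 0.33. Bpgm, which makes the metabolite that lowers the oxygen affinity of hemoglobin, stood at 10.15 ± 0.32, and Bnip3l, the receptor by which reticulocytes clear their mitochondria, at 10.07 ± 0.16. Car2, the red cell carbonic anhydrase, stood at 9.95 ± 0.29. Tmcc2, a transmembrane protein, had the mean level 9.91 with an SD of 1.53, the widest of the 30, and is described with the variable genes.

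The first 30 also held ferritins, enzymes that reduce peroxides and a gene of iron-sulfur cluster assembly. The ferritin light chain Ftl1 stood at 10.96 ± 0.34 and the heavy chain Fth1 at 9.99 ± 0.29. The Ftl1 probe shared 53 bases in a row with the probe of a ferritin light chain-like locus, so the signal cannot be assigned to Ftl1 alone. Gpx1, a glutathione peroxidase, stood at 10.35 ± 0.27 and Prdx2, the peroxiredoxin of red cells, at 10.10 ± 0.37, while Isca1, which takes part in the assembly of iron-sulfur clusters, stood at 10.18 ± 0.23.

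The remaining genes of the first 30 served protein synthesis and turnover or were of mixed function. Ubb, a polyubiquitin gene, stood at 11.38, 10.77, 11.30 and 11.36, again lowest on sham rat 2. The translation-linked genes were Tpt1 (10.64 ± 0.27), Rplp0 (10.64 ± 0.22), Rpl41 (10.36 ± 0.12), Rps29 (10.01 ± 0.29) and Pabpc1, the poly(A)-binding protein (10.23 ± 0.22). Different probes of Tpt1 stood at 10.64, 7.97 and 4.49, which shows how far a level depends on the probe. The others were Stfa2, a stefin that inhibits cysteine proteases (10.39 ± 0.23), Ybx3, an RNA-binding cold shock protein (10.36 ± 0.30), Stmp1 (10.09 ± 0.35), the lysosomal protease cathepsin B, Ctsb (10.08 ± 0.24), the phosphatase Cdc25b (10.05 ± 0.26), Fbxl15 (9.84 ± 0.39) and Rbm38 (9.82 ± 0.42). Just outside the 30 lay, among others, Cox6a1 at 9.66 and Arf5 at 9.65.

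Of these 30 genes 28 were lowest on sham rat 2, whereas 33.2% of the 8320 named genes present on all 4 arrays were lowest there. That count rests on the scaling: it was 5 after quantile normalization and 0 when arrays were scaled on their spike-in probes, under which the median gene stood 0.72 from its own mean over the 4 rats on sham rat 2, -0.24 on sham rat 3 and -0.38 on sham rat 4, against -0.02, 0.02 and 0.06 with the percentile scaling. The 10 brightest genes took 10.5%, 8.40%, 11.2% and 10.8% of the summed signal, and the 100 brightest took 46.5%, 38.9%, 48.2% and 46.8%. These shares do not use the scaling, and they too were lowest on sham rat 2.

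**Figure D1:**
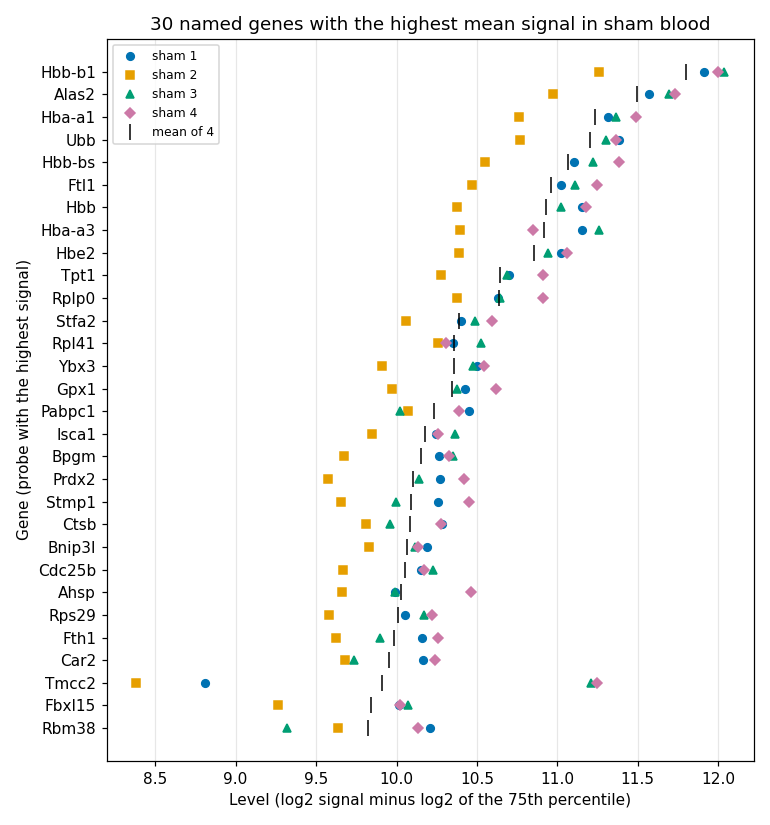
Level (log2 of signal over that array's 75th percentile signal, x axis) of the 30 named genes with the highest mean in sham blood (y axis, in rank order), with a symbol for each of the 4 rats and a bar at the mean. Sham rat 2 lies to the left for 28 of the 30 genes, and Tmcc2 splits into a lower pair (8.81 and 8.38) and a higher pair (11.21 and 11.24).

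Many bright probes had no gene symbol. Of the first 30 genes or probes when unnamed ones are included, 16 were unnamed, and of the first 100, 56 had a symbol. Among the 30 brightest unnamed probes 4 shared at least 20 bases with a named probe, 3 of them with Ftl1. What the other unnamed probes measure was not analysed here.

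In all, 8320 of 17672 named genes (47.1%) were well above background on all 4 sham arrays and 7422 (42.0%) on none. Against that background, lists of cell type and pathway genes were counted by the number of sham arrays on which each gene was present. All 31 genes of the erythroid list whose symbols were found on the array and all 76 cytosolic ribosomal protein genes were present on all 4. At the other end, none of 9 neuronal genes was present on any. The lists were chosen with earlier results of these data known, so the counts describe sham blood and test nothing.

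**Figure D2:**
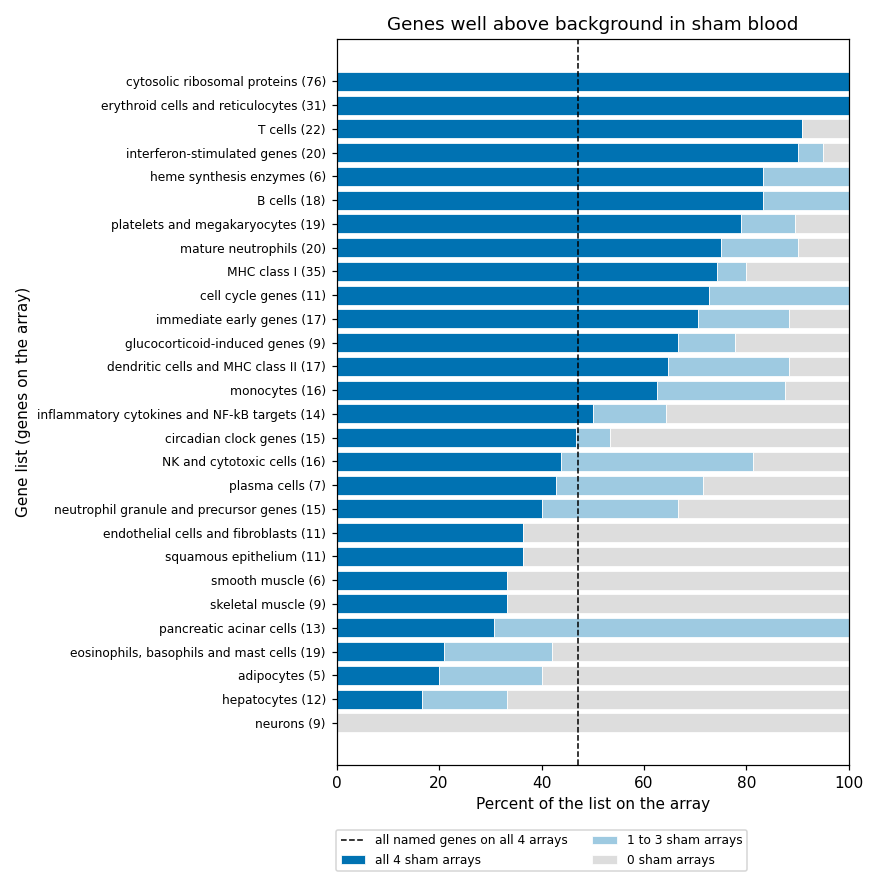
Percent of each gene list (x axis) well above background on all 4, on 1 to 3 or on 0 sham arrays, with the number of genes on the array in brackets; the dashed line is the 47.1% of all named genes on all 4 arrays. Lists of red cells, ribosomes, T cells and interferon-stimulated genes reach furthest, the 13 pancreatic acinar genes are mostly in the class of 1 to 3 arrays, and no neuronal gene reaches either coloured class.

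Of the further red cell genes, the anion exchanger Slc4a1 stood at 9.33 ± 0.27, the Rh blood group protein Rhd at 9.09 ± 0.31 and the transcription factor Klf1 at 5.65 ± 0.44. The lowest members were Epor, the erythropoietin receptor, at 0.71 ± 0.54 and the transcription factor Tal1 at 0.86 ± 0.16. These were named after their values were seen. Of the later enzymes of heme synthesis 5 of 6 were present on all 4 arrays: among them Urod stood at 8.33 ± 0.45 and Alad at 6.19 ± 0.43, while Cpox was present on 1 array.

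Platelet genes were present for 15 of 19 on all 4 arrays. Pf4, the chemokine of platelet granules, stood at 8.92, 7.96, 8.93 and 8.69. Gp1bb and Gp9, subunits of the receptor for von Willebrand factor, stood at 7.54 ± 0.44 and 4.77 ± 0.45. Thbs1 (thrombospondin) was well above background on no sham array.

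T cell genes were among the most completely present, with 20 of 22 on all 4 arrays. The T cell receptor complex was led by Cd3d, at 4.99, 5.27, 5.09 and 5.05, and Cd247, the zeta chain, at 4.46 ± 0.37, followed by the coreceptor Cd6 at 4.22 ± 0.33. Cd3d was the steadiest of these between rats. Only Cd28, the costimulatory receptor, and Trat1, an adaptor of the receptor complex, were present on none.

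B cell genes were present for 15 of 18 on all 4 arrays and for the other 3 on 1 to 3 arrays. Cd79b, a signalling chain of the B cell receptor, stood at 3.70 ± 0.19 and the coactivator Pou2af1 at 3.50 ± 0.20. Antigen presentation by MHC class II was led by the invariant chain Cd74 (6.12 ± 0.36), RT1-Bb (4.63 ± 0.31) and RT1-Db1 (4.54 ± 0.38), and 11 of 17 genes of that list were on all 4 arrays. RT1-Ba, the partner chain of RT1-Bb, and Clec9a, a receptor of dendritic cells, were on none. Plasma cell genes were present for 3 of 7 on all 4 arrays, close to the 47.1% of all named genes. These were Xbp1 (0.08 ± 0.27), Derl3 (-0.92 ± 0.15) and Mzb1 (-1.58 ± 0.12), all genes of the secretory pathway, whereas the regulators Irf4 and Prdm1 were on none.

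Mature neutrophil genes were present for 15 of 20 on all 4 arrays. The calcium-binding alarmins S100a9 and S100a8 led them. S100a9 stood at 4.21, 6.05, 4.98 and 4.68, highest on sham rat 2 and lowest on sham rat 1, and S100a8 followed the same order of its extremes at 3.63, 5.03, 4.33 and 4.19. Ncf1, a subunit of the oxidase of phagocytes, stood at 3.44 ± 0.17, and the chemokine receptor Cxcr1 and the glucosidase Mgam were on none.

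Genes of neutrophil precursors and their granules were present less fully than those of mature neutrophils, 6 of 15 on all 4 arrays and 5 on none. Of all named genes 47.1% were on all 4 and 42.0% on none. Fcnb, a ficolin, stood at 4.60 ± 0.29, the defensin RatNP-3b at 2.52 ± 0.20 and Chi3l1 at 1.91 ± 0.39. The 5 on none were the proteases Elane, Prtn3 and Ctsg, lactoferrin (Ltf) and the defensin Defa24. Most of these are made in bone marrow precursors.

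Monocyte genes were present for 10 of 16 on all 4 arrays, led by lysozyme Lyz2 (8.91 ± 0.16), galectin Lgals3 (4.07 ± 0.28) and the lysosomal glycoprotein Cd68 (1.97 ± 0.13). The scavenger and mannose receptors Cd163 and Mrc1, which mark tissue macrophages, were on none. NK and cytotoxic genes were split, with 7 of 16 on all 4 arrays, 6 on some and 3 (Cd160, Ncr3 and Klrc1) on none. The transcription factor Tbx21 stood highest, at 7.49, 6.99, 7.53 and 7.51, from 1 spot of 1 probe, with perforin Prf1 (2.57 ± 0.84) and granzyme Gzmm (2.54 ± 0.87) well below it and far more spread.

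Eosinophil, basophil and mast cell genes were the least present of the blood cell lists, with 4 of 19 on all 4 arrays and 11 on none. Mcpt8, a protease of rodent basophils, stood at 2.24, 2.28, 3.14 and 3.27, higher on sham rats 3 and 4. Prg2, the major basic protein of eosinophils, stood at -0.63 ± 0.40 and Hdc, which makes histamine, at -1.17 ± 0.91. Those on none were Epx, Prg3, Il5ra, Fcer1a, Ms4a2, Cpa3, Mcpt8l2, Tpsab1, Tpsb2, Gata2 and Il4.

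Genes that mark solid organs were mostly below background. Of 12 hepatocyte genes 8 were on none, among them the fibrinogen chains Fga, Fgb and Fgg and the carrier proteins Apoa1, Apoa2 and Ttr, with Cyp3a2 and Tat. Ahsg stood at 3.90 ± 0.10, but its second probe stood at -3.29 and was present on 1 array. Apob stood at -0.92 ± 0.39. Of 9 skeletal muscle genes 6 were on none (Acta1, Ckm, Myh1, Myh2, Myh4 and Myl1), and the 3 present were Mb (-0.17 ± 0.28), Tnni2 (-0.72 ± 0.25) and Tnnt3 (-2.13 ± 0.36).

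Squamous epithelium, the lining of the esophagus, had 7 of 11 genes on none (Krt5, Krt13, Krt15, Dsg3, Dsp, Perp and Ivl). Tp63 stood at 3.84 ± 0.24 by one probe and at -4.98 by another that was present on no array. Krt4 stood at -0.08 ± 0.58 and Krt14 at -1.75 ± 0.43. Endothelial and fibroblast genes were on none for 7 of 11 (Tek, Tie1, Emcn, Col3a1, Dcn, Lum and Pdgfra), with Col1a1 at 1.97 ± 0.32 by one probe and -5.04 by the other, Col1a2 at -1.12 ± 0.18 and Kdr at -1.67 ± 0.31.

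Smooth muscle had Smtn (1.33 ± 0.59) and Acta2 (0.41 ± 0.35) on all 4 arrays and Myh11, Tagln, Cnn1 and Des on none. Of 5 adipocyte genes Cfd stood at 1.07 ± 0.24, while Adipoq, Plin1 and Fabp4 were on none. The neuronal genes on none were Snap25, Syt1, Gap43, Nefl, Nefm, Rbfox3, Slc17a7, Gad1 and Stmn2. None of the sex-linked genes listed was on the array.

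Interferon-stimulated genes were widely present in sham blood, with 18 of 20 present on all 4 arrays. The antiviral enzyme Rsad2 stood at 9.52, 9.27, 9.53 and 9.81, the transcription factor Irf7 at 8.42, 7.89, 8.14 and 8.80, and Ifi27 at 5.92 ± 0.29. The chemokine Cxcl10 was on none. Ifit1 divided the rats: it stood at -4.68 and -5.48 on sham rats 1 and 2, below background, and at 0.59 and 1.42 on sham rats 3 and 4, and it was present on 13 of the other 16 arrays. It was named after its values were seen.

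MHC class I genes were present for 26 of 35 on all 4 arrays. B2m, the light chain, stood at 8.13 ± 0.28, and the heavy chain genes RT1-A1 and RT1-CE2 at 8.06 ± 0.33 and 7.28 ± 0.24. The 7 on none were RT1-M1-2, RT1-M1-4, RT1-M1-5, RT1-M10-1, RT1-M2, RT1-M4 and RT1-M5. Heavy chain genes are polymorphic and alike, so their probes may not separate them, which was not tested.

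Inflammatory genes were present for 7 of 14 on all 4 arrays, close to the 47.1% of all named genes. Il1b stood at 3.07 ± 0.21, its antagonist Il1rn at 2.92 ± 0.21 and the NF-kB inhibitor Nfkbia at 2.54 ± 0.30. Il1a, Il6, Ptgs2, Cxcl1 and Cxcl2 were on none. Immediate early genes, which respond within minutes to a stimulus, were on all 4 arrays for 12 of 17, led by Jund (6.57 ± 0.37), Ier2 (3.31 ± 0.15) and Btg2 (2.88 ± 0.14), with Egr2 and Zfp36 on none.

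Glucocorticoid-induced genes were on all 4 arrays for 6 of 9: Tsc22d3 stood at 3.00 ± 0.48, Cebpd at 2.03 ± 0.34 and the metallothionein Mt2A at 1.20 ± 0.42, and Zbtb16 and Sult1a1 were on none. Of 15 clock genes 7 were on all 4 arrays and 7 on none (Bhlhe40, Clock, Per2, Nr1d1, Hlf, Ciart and Nr1d2). The output factor Dbp stood highest at 2.19 ± 0.18, with Npas2 at -0.45 ± 0.36 and the repressor Cry1 at -1.05 ± 0.39. The hour at which blood was drawn is not given in the labels.

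Cell cycle genes were on all 4 arrays for 8 of 11, led by Hmgb2 (2.09 ± 0.50), the survival and division protein Birc5 (1.80 ± 0.40) and the ribonucleotide reductase subunit Rrm2 (1.64 ± 0.90). Ribosomal protein genes other than Rplp0, Rpl41 and Rps29 reached down to Rpl15, at -1.69 ± 0.40.

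Most genes differed little between the 4 rats. Over the 8320 named genes present on all 4 arrays the median SD of the level was 0.26, with quartiles of 0.17 and 0.37. An SD below 0.5 was found for 7541 genes (90.6%) and an SD above 1 for 46 (0.553%). Replicate spots of 1 probe on the same array had a median SD of 0.12 over 6644 genes, and for 77.4% of these the SD between rats was the larger. Under the same measure the median SD was 0.62 between the untreated rats, 0.37 and 0.47 at the lower and higher dose of STW5, and 0.29 with omeprazole; the differences between these were not tested.

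The steadiest of these genes were Samm50, a protein of the mitochondrial outer membrane, at 3.03, 3.04, 3.03 and 3.03, with an SD of 0.0039. C3h9orf78, Ranbp3, Abcc4 and Trappc2l followed, each with an SD of 0.02. They were chosen as the lowest of 8320 and carry no test. The SD of Samm50 was 0.0975 when arrays were scaled on their median spot and 0.0587 when scaled on detected probes, so its SD of 0.0039 rests on the scaling. Replicate spots on the same array had an SD of 0.08 for Samm50, 0.22 for Ranbp3 and 0.27 for Abcc4, each above the gene's SD between rats. C3h9orf78 and Trappc2l had 1 spot each and give no such value.

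The 20 named genes with the highest SD fell into a few patterns. On 13 of them sham rat 1 was highest, against 20.1% of the named genes present on at least 1 sham array. Ctrb1 stood at 3.99, -1.96, -1.07 and -1.82 (SD 2.83), Gzma at 3.37, -0.17, -0.90 and -1.49 (SD 2.18) and Try10 at 1.61, -2.99, -0.94 and -2.12 (SD 2.00). In each, sham rat 1 stood apart from the other 3. These values chose the genes and are given as a description.

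Sham rat 1 was also highest for Cpa1, a pancreatic carboxypeptidase, at 1.17, -2.47, -2.28 and -1.67, and for the granzyme Gzmk, at 2.87, 0.29, -0.15 and -0.98. The order of the other rats differed between these genes. Nkg7, a granule protein of killer cells, stood at 4.10, 1.87, 1.52 and 1.06, and Cdk1, the kinase that drives mitosis, at 1.29, -1.35, -0.85 and -1.10. The cadherin Cdhr1 (SD 1.56), Ssx2ip (SD 1.35), the fatty acid transporter Slc27a2 (SD 1.26), the immune regulator Cd200 (SD 1.22), the RNA-binding protein Pcbp3 (SD 1.20) and the somatostatin receptor Sstr3 (SD 1.30) were also highest on sham rat 1. Cd200 had a second probe that was highest on sham rat 1 too, at -2.01, while that of Pcbp3 was below background on all 4 arrays.

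A different split was seen for Tdrd12, Tmcc2, Tpx2 and Nprl3, which were lower on sham rats 1 and 2 and higher on 3 and 4. Tdrd12 stood at -0.77, -1.16, 2.61 and 2.49. Tmcc2 stood at 8.81, 8.38, 11.21 and 11.24, and its second probe at 4.20, 3.65, 7.56 and 7.56 gave the same split. Tpx2, a spindle protein, stood at -1.12, -2.19, 0.42 and 1.06, and Nprl3, a regulator of nutrient signalling, at 3.05, 2.57, 5.02 and 5.39. For each of these genes both higher values lay above both lower ones.

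Nprl3 neighbours the alpha-globin cluster: its probe lies 58.3 kb from that of Hba-a1 on chromosome 10 of rn4. Hba-a1, at 11.31, 10.76, 11.36 and 11.49, had the same order within a far narrower range. In the 16 rats of the other groups the ranges were as wide, from -2.997 to 3.28 for Tdrd12, from 6.62 to 11.73 for Tmcc2, from -3.63 to 1.28 for Tpx2 and from 0.73 to 5.32 for Nprl3. The 75th percentile signal was higher on the arrays of sham rats 1 and 2 (116 and 173) than on those of 3 and 4 (103 and 97.8), and its part in the split was not tested.

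The remaining genes of the 20 were not highest on sham rat 1 either. Pik3ip1, an inhibitor of phosphoinositide kinase, stood at 1.74, 3.397, 2.34 and 0.20, highest on sham rat 2. Rec8, a meiotic cohesin, stood at -0.79, -2.55, -0.63 and 0.34, so that sham rats 3 and 4 were above 1 and 2 here too, by a narrow margin between sham rats 1 and 3. Ifna5, an interferon alpha gene, stood at -1.66, -2.67, 0.46 and -1.26, again with sham rats 3 and 4 above 1 and 2 and with an SD between spots of 0.90, and its second probe was present on no array. Just outside the 20 lay Cdkl1 (SD 1.19), Stmn1 (1.19) and Gch1 (1.17).

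Of the 20 genes, 12 were also among the tenth (10%) of named genes present on all 4 sham arrays with the highest SD within the other 4 groups, whose arrays did not choose them. Ranked there with unnamed probes included (11604 in all), Ctrb1, Tdrd12, Tpx2, Nprl3 and Tmcc2 were at or above the 99.8 percentile. Cpa1 stood at the 58.9 percentile and Ssx2ip at the 35.9 percentile. For Ctrb1, 1 of the 16 arrays stood at 6.08 and the others at -1.24 or below. Without sham rat 1, 7 of the 20 stayed among the 20 most variable (Tdrd12, Tpx2, Tmcc2, Pik3ip1, Ifna5, Nprl3 and Rec8), and Tdrd12 came first with an SD of 2.14.

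**Figure D3:**
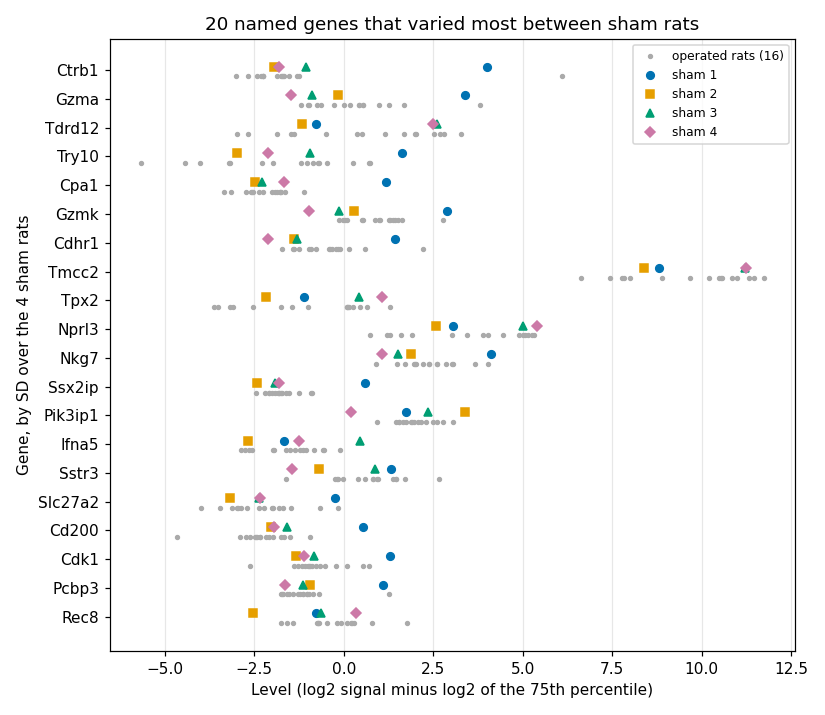
Level (log2 of signal over that array's 75th percentile signal, x axis) of the 20 named genes with the highest SD between sham rats (y axis, widest first); coloured symbols are the 4 sham rats and grey points the 16 rats of the other groups. Sham rat 1 lies furthest right for 13 genes, and for Tdrd12, Tmcc2, Tpx2 and Nprl3 the sham rats form a lower and a higher pair within the wide range of the other rats.

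The pancreatic enzyme list was followed in full because 3 of the 20 genes belong to it. All 13 of its genes on the array were present on sham rat 1, and 4 (Ctrb1, Try10, Cpa1 and Clps) were present on all 4 sham arrays. All 13 were highest on sham rat 1 under every scaling tried, where 20.1% of named genes were. That count is a description: 7 of the 13 were above background on sham rat 1 alone, and the list was followed because of its values on these arrays. The genes named next were chosen after their values were seen. Prss1, a trypsinogen, stood at 4.08 on sham rat 1 and at -4.33, -3.84 and -4.61 on the others, where it was below background.

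Genes that were below background on sham rats 2 to 4 give bounds. On each of these arrays the lowest level that counts as above background, or the gene's own level where higher, was taken. The mean of these over the 3 arrays was set against sham rat 1. Prss1 was at least 196-fold higher on sham rat 1 than in the mean of the other 3, Cpb1 at least 44.7-fold, Cel, a lipase, at least 32.7-fold and Cela2a at least 24.5-fold. For Cela3b, Pnlip (pancreatic lipase) and Amy2a3 (amylase) the bounds were 8.32-fold, 4.99-fold and 3.41-fold, that of Amy2a3 against its own signal. They compare 1 rat with the mean of 3, are no bounds against each rat alone, and carry no test. The second probe of Amy2a3 stood at 2.24, -5.54, -4.82 and -4.70, and that of Try10 at 1.99, -3.40, -1.81 and -2.50. For these genes the place of sham rat 1 thus did not hang on one probe.

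Colipase (Clps) was an exception in size, at 0.91, -0.76, 0.48 and 0.07. Prss3 stood at -0.39, -3.67, -1.01 and -2.37, and Cela1 at -0.66, -3.35, -4.26 and -3.45. Over the 13 genes the median of sham rat 1 minus the mean of the other 3 was 3.94 on the measured levels, which include signals below background, and 1.84 with normexp background correction.

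In the 16 rats of the other groups, Prss1, Cpb1 and Cela2a were well above background on none. Cela1, Cela3b and Pnlip were present on 1 array each, Cel on 2, Amy2a3 on 6, Prss3 on 11 and Try10 on 12. Prss3 was higher than on sham rat 1 on 5 of these arrays, reaching 1.05. Ctrb1, Cpa1 and Clps were present on all 16, with Ctrb1 between -3.002 and 6.08. The value of 6.08 came from replicate 4 of STW5 at 0.5 ml/kg, on which Prss1 was at -5.71, below background, so that array did not share the set seen on sham rat 1. The source of these transcripts on the array of sham rat 1 was not tested.

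**Figure D4:**
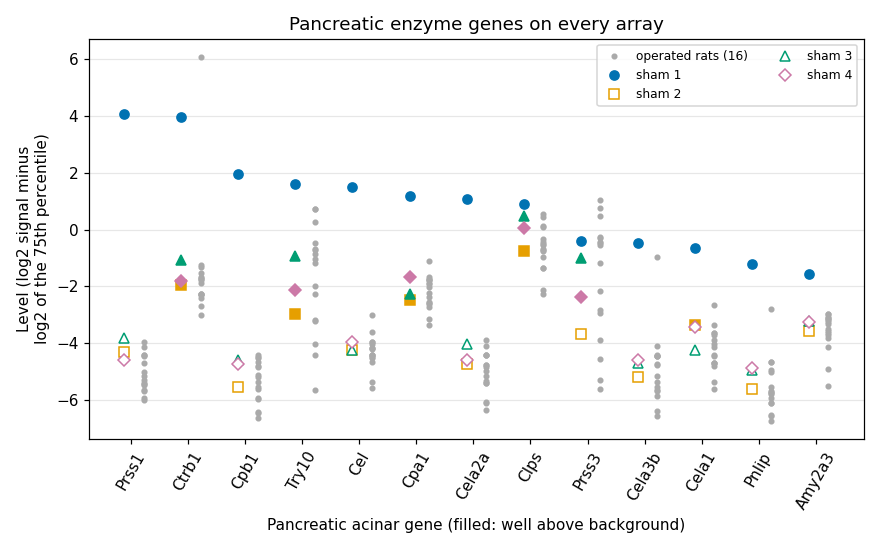
Level (log2 of signal over that array's 75th percentile signal, y axis) of the 13 pancreatic acinar genes (x axis) on the 4 sham arrays, filled where well above background, with the 16 arrays of the other groups as grey points. Sham rat 1 is highest of the sham rats for all 13 genes, from Prss1 at 4.08 to Amy2a3 at -1.58, and grey points lie above it for Ctrb1 (1, at 6.08) and Prss3 (5, up to 1.05).

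Cytotoxic lymphocyte genes also stood high on sham rat 1. Of the 13 present on at least 1 array, 11 were highest there (10 with spike-in scaling), against 20.1% of named genes. On sham rat 4, 11 were lowest (6 with normexp, 13 with spike-in scaling), against 20.6% of named genes present on all 4 arrays. Both counts are descriptions. Of the 13, 6 were present on 1 to 3 arrays only, so that their order was partly fixed by the arrays they were present on. Gzma, Gzmk and Nkg7 had already been chosen by their SD on these arrays. The median of sham rat 1 minus the mean of the others was 2.04 (1.00 with normexp). Prf1 stood at 3.76, 2.56, 2.07 and 1.90 and Gzmm at 3.81, 2.41, 2.06 and 1.88. Gzmb, a further granzyme, stood at 1.17, -2.13, -1.63 and -3.48. The exceptions were Tbx21 and the receptor Klrk1, at 1.62, 1.59, 1.68 and 1.71.

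T cell genes had another order: 16 of the 20 present were highest on sham rat 2 (15 to 20 over the settings), against 29.8% of named genes. Lowest on sham rat 1 were 12 of the 20 (6 with spike-in scaling), against 23.9% of named genes present on all 4 arrays. The values of Cd8a, a coreceptor that cytotoxic T cells carry, were 2.11, 1.63, 1.17 and 1.59, and those of Cd8b were 0.53, -0.02, -0.36 and 0.03, highest on sham rat 1 in both. Il7r, a receptor of resting T cells, stood at -0.94, 0.99, 0.23 and 0.31, lowest on sham rat 1. Cd8a, Cd8b and Il7r were named after their values were seen, and only 3 of the 20 T cell genes were highest on sham rat 1.

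Cell cycle genes were highest on sham rat 1 for 9 of 11 (7 with spike-in scaling, 8 with the mean of a gene's probes), against 20.1% of named genes, with a median difference of 1.13 from the other rats (0.70 with normexp). Besides Cdk1, Top2a stood at -0.64, -5.43, -4.22 and -3.91 and Ccna2 at 0.03, -4.09, -3.73 and -4.29, both below background on sham rats 2 to 4, so that their place among the 9 was fixed by the array they were present on. Birc5 was highest on sham rat 4, at 2.00, 1.35, 1.60 and 2.24.

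Sham rat 1 was at the same time lowest for 13 of 18 neutrophil genes, against 23.9% of named genes present on all 4 arrays, and this count was 10 to 13 over the scalings and other settings. Of the 18, 3 were present on 1 to 3 arrays only, so that their order was partly fixed by the arrays they were present on. Mmp8, a collagenase of neutrophil granules, stood at -1.56, -0.10, 0.05 and -0.14 and Cd177, a neutrophil surface protein, at -3.11, -1.57, -1.13 and -1.22. The defensin genes Np4 and Defa5 went the other way: Np4 stood at -0.61, -5.48, -4.75 and -4.63 and Defa5 at 0.15, -4.42, -4.67 and -3.66, present on sham rat 1 alone of the 4. These 4 genes were named after their values were seen.

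Red cell and platelet genes were mostly highest on sham rat 4, though not with spike-in scaling. Of 31 erythroid genes 25 were highest there, and of 17 platelet genes present 15 were, against 28.3% of named genes. With spike-in scaling these counts were 4 and 2. On sham rat 2, 22 erythroid genes were lowest, against 33.2% of named genes present on all 4 arrays, but 13 after quantile normalization, and with spike-in scaling 0 were lowest and 27 highest there. Measured against the median of all genes on the same array, the median erythroid gene was higher by 0.27 on sham rat 4, which a scaling by 1 constant per array cannot change, by 0.22 after quantile normalization and by 0.20 with normexp. The median platelet gene was higher there by 0.33, 0.31 and 0.23 in the same order. By this measure the median erythroid gene stood at -0.34 on sham rat 2, at -0.13 after quantile normalization and at -0.14 with normexp.

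Heme synthesis enzymes were highest on sham rat 4 for 5 of 6 (2 with spike-in scaling), against 28.3% of named genes. Their median there was 0.58 against all genes. Of the 6, Cpox was present on 1 array only, so that its order was partly fixed by that array. Urod stood at 8.33, 8.17, 7.88 and 8.94 and Uros at -1.76, -1.84, -0.46 and -0.02. B cell genes were lowest on sham rat 2 for 13 of 18, against 33.2% of named genes present on all 4 arrays, but with spike-in scaling 0 were lowest and 16 highest there. Of the 18, 3 were present on 1 to 3 arrays only, so that their order was partly fixed by the arrays they were present on. Against the median of all genes on that array, the median B cell gene stood at -0.24 on sham rat 2. A scaling by 1 constant per array cannot change this value, which was -0.23 after quantile normalization and -0.19 with normexp. Ribosomal protein genes were highest on sham rat 2 for 48 of 76 (48 to 76 over the settings), against 29.8% of named genes. Eosinophil, basophil and mast cell genes were highest on sham rat 3 for 6 of the 8 present, against 21.8% of named genes. The count was 3 with spike-in scaling, 5 with normexp and 7 after quantile normalization. Their median there was 0.58 above the genes' means (0.24 with normexp), and Hdc stood at -0.95, -1.91, 0.03 and -1.85. The median level of the 8 was low, at -2.24. Of them, 4 were present on 1 to 3 arrays only, so that their order was partly fixed by the arrays they were present on.

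MHC class I genes were lowest on sham rat 3 for 19 of 28, and for 17 to 22 over the settings, against 22.3% of named genes present on all 4 arrays. Of the 28, 2 were present on 1 to 3 arrays only. RT1-A2 stood at 5.35, 5.19, 3.08 and 5.46 and RT1-CE12 at -0.84, -2.32, -4.88 and -2.35, the widest ranges of the list, the last of them below background on sham rat 3. RT1-A2 ranged from 2.82 to 6.27 in the other 16 rats. These genes were named after their values were seen, and differences between rats in the sequence of the gene, which a probe can also read as signal, were not tested.

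**Figure D5:**
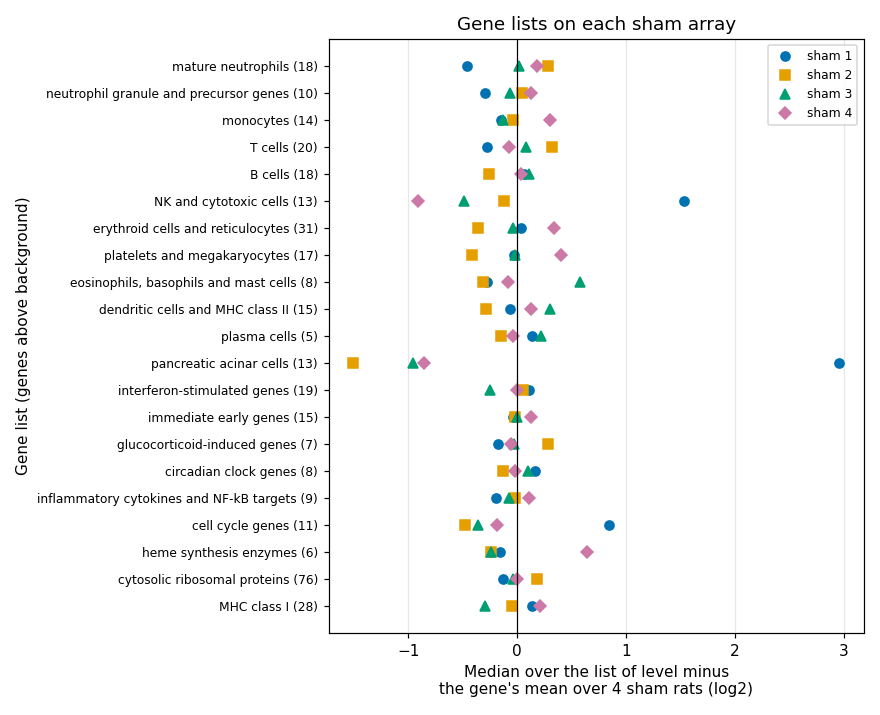
Median over each gene list (y axis, genes present on at least 1 sham array in brackets) of the level on a sham array minus the gene's mean over the 4 sham rats (x axis, log2), for each rat. The pancreatic acinar list (2.96), the NK list (1.53) and the cell cycle list (0.85) stand highest on sham rat 1, and most medians of the other lists lie within 0.5 of 0.

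The design sets sham blood against untreated esophagitis, to ask what the disease changes in blood. Of 15213 genes tested with limma, 1 (0.00657%) passed at an adjusted p below 0.05, and 2775 (18.2%) had an unadjusted p below 0.05. The gene was Timmdc1, which helps to assemble complex I in mitochondria, at -1.65, -1.96, -2.20 and -2.53 in sham rats and -3.25, -3.86, -3.98 and -3.32 in untreated rats. The groups did not overlap, and the level was lower in untreated rats by a log2 change of -1.51 ± 0.23 (SE, adjusted p = 0.0422 in limma). The signal was near background: it was well above it on 3 sham and 2 untreated arrays. The call was lost under 8 of the other settings, and also without sham rat 1 or 3 or without untreated replicate 2, 3 or 4. In the setting limited to genes present on all 4 sham arrays, Timmdc1 was not tested, since it was below background on sham rat 4.

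Genes that missed the threshold but had the smallest p values were N4bp1, Jun and Clock among those higher in untreated rats (adjusted p = 0.244 in limma for each). Jun, a transcription factor of the immediate early class, stood at -1.51, -1.26, -1.18 and -0.76 in sham rats and -1.0002, 2.41, 1.74 and 1.26 in untreated rats, a log2 difference of 2.28 ± 0.48. N4bp1, an RNase that restrains inflammatory signalling, stood at -2.19, -2.04, -2.43 and -1.93 in sham rats and -1.54, -0.52, 0.16 and -0.65 in untreated rats, a difference of 1.51 ± 0.30. Clock was below background on all 4 sham arrays and measured on 3 untreated arrays.

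On the lower side were Cimap2 and Zfp458 (adjusted p = 0.244 in limma for each), which were well above background on no untreated array. Cimap2 was measured on 2 sham arrays, at -2.91 and -2.12, and Zfp458 on 1, at -2.18, so no fold is given for either. None of the genes named for abundance or for variation passed. Without replicate 1 of the untreated rats, 1814 genes passed, 875 of them higher and 939 lower in untreated rats, and without any other array of either group the count was 0 or 1. On that untreated array Jun stood at -1.0002, against 1.26 to 2.41 on the other 3, and the cause of its place near the sham arrays was not tested.

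Against the mean of all 4 groups with esophagitis, no gene differed from sham at an adjusted p below 0.05 in limma (0 of 15213, 0%), and 1928 (12.7%) had an unadjusted p below 0.05. Again leaving out untreated replicate 1 changed the count, to 284. The genes with the smallest p values that were higher with esophagitis were Clec7a, Prok2 and Pla2g7 (adjusted p = 0.141 in limma for each). Clec7a, the receptor for fungal beta-glucan on myeloid cells, stood at -1.52, -1.27, -1.40 and -1.28 in sham rats and -1.23, 0.67, 0.85 and 0.77 in untreated rats, a log2 difference of 1.71 ± 0.34 against the 4 groups. Prok2, a chemokine-like peptide of neutrophils, differed by 2.27 ± 0.46, from -2.85, -2.50, -1.88 and -2.38 in sham rats, and Pla2g7, which degrades platelet-activating factor, by 1.57 ± 0.33, from 1.85, 2.30, 1.76 and 2.12.

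Lower with esophagitis, at the same adjusted p of 0.141 in limma, were Timmdc1 (-0.99 ± 0.18), RT1-T24-4 (-1.51 ± 0.30) and Glul, glutamine synthetase (-0.92 ± 0.20). RT1-T24-4, an MHC class I gene, stood at 3.83, 3.42, 3.24 and 3.87 in sham rats, and at -0.38, -1.19, -0.81 and -0.95 in the omeprazole group. Glul stood at 1.00, 0.99, 0.41 and 0.43 in sham rats and at -1.46, -2.16, -2.28 and -1.70 with omeprazole. In both genes the 4 omeprazole arrays lay below all of the other 16, sham included. Sham and untreated rats shared a slide, the STW5 groups another and the omeprazole group one of its own, so for the groups on other slides slide and treatment cannot be told apart.

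In data simulated for untreated against sham, 200 of 15213 genes were changed. Of these, 12.5% were called at a log2 shift of 1, 75% at a shift of 2 and 94.5% at a shift of 3. The simulation drew independent normal noise, with the same spread of a gene in every group and no array standing apart. On the real arrays the median SD was 0.62 between untreated rats and 0.26 between sham rats, and untreated replicate 1 stood apart. The simulated shares may therefore be too high for these arrays. The median standard error of a difference was 0.35 against the untreated group and 0.28 against all 4 groups. A count near 0 does not show that sham blood equals that of rats with esophagitis.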

How the data were processed

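Whole-blood RNA of 20 rats was hybridised to 1-colour (Cy3) Agilent arrays, 1 array per rat. The authors deposited spot intensity values that Agilent Feature Extraction 10.7.3.1 had background-subtracted and spatially detrended, per the file headers, with 0 or 1 flags for each spot under other columns, together with processed values of every sample. Those deposited values are a ratio of processed signal to the array's median spot, within a tolerance of 1% on the 4 sham arrays, and were used as an alternative.

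Of 62976 spots per array, 58717 were not controls and held 30367 probes, none saturated. Outlier spots were left out and the spots of a probe averaged. The deposited intensity was turned into a level, log2 of its ratio to the 75th percentile spot on that array. A probe counted as well above background where a share of at least 0.5 of its spots carried that flag. A gene was read from its probe with the highest mean sham level, which gave 26255 genes or unnamed probes, 17672 of them with a symbol. Names came from RefSeq (18341 probes by accession, 2513 by symbol and 528 by synonym), and 8985 probes kept the name in the scanner file. Positions are those of rn4 in the array files.

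Named were the 30 genes of highest mean, per list the top 3 present on all 4 sham arrays and those on 0, the 20 highest and 5 lowest SDs, and, per comparison, genes that passed and the 3 smallest p values in each direction. Other names lie outside this rule and were chosen after their values were seen, also where this is not said beside them. Among these are Epor, Tal1, Rpl15, Gzmb, Klrk1, Cd8a, Cd8b, Il7r, Top2a, Ccna2 and Uros. A few genes that the rule names are not reported here. Members and lists were chosen with earlier results of these data known. The STW5 doses follow the sample titles, whose numbering of the groups runs against the design text.

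Groups were compared with limma 3.58.1 (R 4.3.3) on all 20 arrays, over 15213 genes well above background on at least 4 arrays, with Benjamini-Hochberg adjustment and a threshold of 0.05. The p-values measure the spread between arrays, 1 per animal. The script was tested on simulated data. Python 3.11.15, numpy 2.4.6, pandas 2.3.3 and the R package data.table (1.17.8) were also used. Alternatives were other scalings (median spot, detected probes, quantile, spike-in), normexp with an offset of 50, outlier spots kept, the mean of a gene's probes, other filters, the replicate number as a block, and each array left out. Esophageal tissue was not analysed here.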

Additional observations from a re-analysis of the deposited data

Results flagged for a closer look

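A value was singled out where 1 sham rat stood so far from the other 3 that its gap to the nearest of them, as a share of the whole range of the 4 rats, passed Dixon's 95% critical value for 4 samples. Chance passes about 1 in 20 such groups, and 10 of the 123 genes checked (8.13%) and 2 of the 27 lists did. Most of these genes had been chosen by their level or their SD on the same 4 arrays, so this share is a description and no test.

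Sham rat 2 was the lowest in 7 of the 10 genes. The gap was a share of 0.839 of the range for the globin gene Hbb-b1, 0.872 for Ubb, 0.895 for Ybx3, 0.868 for Bpgm, 0.867 for Cdc25b, 0.936 for Fbxl15 and 0.925 for Tbx21. All but Tbx21 are among the 30 most abundant genes, and the array of sham rat 2 was the brightest of the 4; its part in these gaps was not tested.

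Sham rat 1 was the highest for Ctrb1, with a share of 0.851, for the cell cycle gene Hmgb2, with 0.838, and for the median of the pancreatic acinar list, with 0.854. Derl3, a gene of the secretory pathway, was highest on sham rat 3, with 0.907. The median of the heme synthesis enzymes was highest on sham rat 4, with 0.903.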

How the results depend on the processing

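The number of the 30 most abundant genes that were lowest on sham rat 2 was 5 after quantile normalization and 0 with spike-in scaling. Of the 20 most variable genes 11 were kept with spike-in scaling, 11 with normexp and 1 without the filter on dim genes, and 7 to 19 with an array left out, 7 being without sham rat 1. The median SD was 0.57 with spike-in scaling. The median of sham rat 1 minus the others was 1.84 (normexp) and 4.37 (mean of a gene's probes) for acinar genes, 1.00 (normexp) for NK genes, and 0.70 and 0.95 for cell cycle genes in the same order. The cause was not tested.

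Untreated against sham gave 0 calls in limma with the percentile over detected probes, quantile normalization, spike-in scaling, normexp, no filter, genes on all 4 sham arrays only, the replicate block, and the 8 arrays alone; at an unadjusted p below 0.05 these held 2887, 2923, 2789, 3481, 3987, 2239, 3763 and 1584 genes. With an array left out the calls ran from 0 to 1814, the highest without untreated replicate 1, and from 0 to 284 for all 4 groups with esophagitis. Spike-in scaling moved the median difference of all genes between untreated and sham rats from -0.20 to 0.36.

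The replicate block gave 0 calls in both comparisons; correlations of same-numbered sham and untreated arrays were 0.07, -0.08, 0.02 and -0.16, so the numbers were not taken as pairs. Slide as a random block could not be fitted, since each group lies on 1 slide. Signal near background limits genes such as Timmdc1.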
